A study of Mus musculus with 250 samples.

Results

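Iron handling in the 250 tail epidermal cells of this series was followed through 6 of the 27003 genes in the deposited count table. They are the ferritin heavy chain Fth1 and light chain Ftl1, which build the shell that stores iron, the iron exporter ferroportin (Slc40a1), the transferrin receptor (Tfrc), the divalent metal transporter Slc11a2 (DMT1) and the haem-degrading enzyme Hmox1. The genes were taken by symbol but selected on measured values: results of these data had been seen, among them the low summed Slc40a1 reads of the distal region against the control. The levels below are therefore a description, and no list count here is independent evidence of a direction.

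Per the labels, the cells came from the tail epidermis of Lrig1CreER/Rosa-TdTomato mice, which carry a Cre recombinase under Lrig1 control and a TdTomato reporter. They were sorted "Lrig1 GL" cells positive for surface Sca1. Each was sequenced singly with Smart-Seq2, which covers whole transcripts and counts reads, not molecules. All had the time label of 8 weeks and "pw1", which the labels do not spell out. Control cells (84) came from skin labelled non-memory, distal cells (81) from the region labelled distal memory, and the remaining 85 from the wound bed. Genotype, sort and time label were shared by all 3 regions. No unlabelled or Sca1-negative cells were among them. Each region came in 2 batches, and each batch of a region was 1 plate. No animal is named in the labels: each region was taken as 1 sample, region and plate cannot be told apart within a batch, and no test between regions was run.

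A cell takes up transferrin-bound iron through Tfrc, moves it out of the endosome through Slc11a2, keeps the surplus inside ferritin and releases iron through Slc40a1. Hmox1 frees iron from haem. Iron regulatory proteins tie these genes together: in low iron they bind a hairpin, the iron-responsive element, in the messenger RNA. At the 5′ end of ferritin and ferroportin messages this blocks translation, and at the 3′ end of the Tfrc message it protects the RNA from decay. Read counts measure RNA, so they do not show the translational arm. In skin, iron is known to leave the body with shed keratinocytes.

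The hairpin loops that this control reads are shown because they divide the genes that hold one into 5′ and 3′ types. Each line is the sense strand of the message, 5′ to 3′, from the GENCODE M21 transcripts on GRCm38, and the capitals mark the 6-base loop.
Fth1, 5′ UTR, chr19:9982732-9982760, plus strand: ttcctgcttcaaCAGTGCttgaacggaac
Ftl1, 5′ UTR, chr7:45459779-45459807, minus strand: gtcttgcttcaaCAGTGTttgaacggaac
Slc40a1, 5′ UTR, chr1:45925465-45925493, minus strand: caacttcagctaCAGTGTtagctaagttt
Tfrc, 3′ UTR, chr16:32631219-32631247, plus strand: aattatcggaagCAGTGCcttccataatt
Tfrc, 3′ UTR, chr16:32631598-32631626, plus strand: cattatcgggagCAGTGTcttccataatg
Tfrc, 3′ UTR, chr16:32631663-32631691, plus strand: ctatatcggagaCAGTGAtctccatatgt
Tfrc, 3′ UTR, chr16:32631710-32631738, plus strand: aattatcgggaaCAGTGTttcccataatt
Slc11a2, 3′ UTR of an alternative isoform, chr15:100395153-100395181, minus strand: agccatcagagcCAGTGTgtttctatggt

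The search used the pattern CNNNNNCAGTGN on the sense strand, with at least 4 of the 5 bases on each side of the loop able to pair, G with U included. Fth1, Ftl1 and Slc40a1 each held 1 match in the 5′ UTR, Tfrc held 4 in the 3′ UTR, and Hmox1 held none. The Slc11a2 match paired at 4 of 5 positions and lies in only some isoforms, which the gene counts do not separate; the other matches paired at 5 of 5. Of 20262 genes with a 5′ UTR, 134 (0.661%) held such a match there. Of 20830 genes with a 3′ UTR, 810 (3.89%) held one there, and Tfrc was the 1 gene with 4 or more. A match is a description of the letters and not a measured site.

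Depth set how much could be seen. Reads per cell ran from 3857 to 3119120 with a median of 49298, and plate medians from 31686 to 93690.5. In batch 1 of the distal region 4 deep cells held 72.8% of the plate's reads. In batch 1 of the control, 19 of 28 cells had over 10% of their non-mitochondrial reads on predicted (Gm-numbered) genes, against 0 to 4 cells on the other plates. Keratinocyte genes were present throughout: 242 cells had a read of the 7 basal genes and 215 of the 9 upper follicle genes. Macrophage and dendritic genes had reads in 8 cells, with C1qb, Mrc1 and Cd207 at 0 in all cells, and fibroblast, endothelial, melanocyte, T cell and erythroid genes in 1 to 6 cells each. Not every gene of these lists could be looked up. Among the counted genes were 7 of 11 macrophage and dendritic, 1 of 5 erythroid, 3 of 5 melanocyte and 4 of 5 fibroblast genes. The upper follicle genes, summed per plate, stood at 16573 and 28483 scaled CPM (reads relative to the plate's total, with the scaling explained below) in control, 4263 and 6864 in distal and 2338 and 12792 in wound bed cells, for batches 1 and 2.

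**Figure D1:**
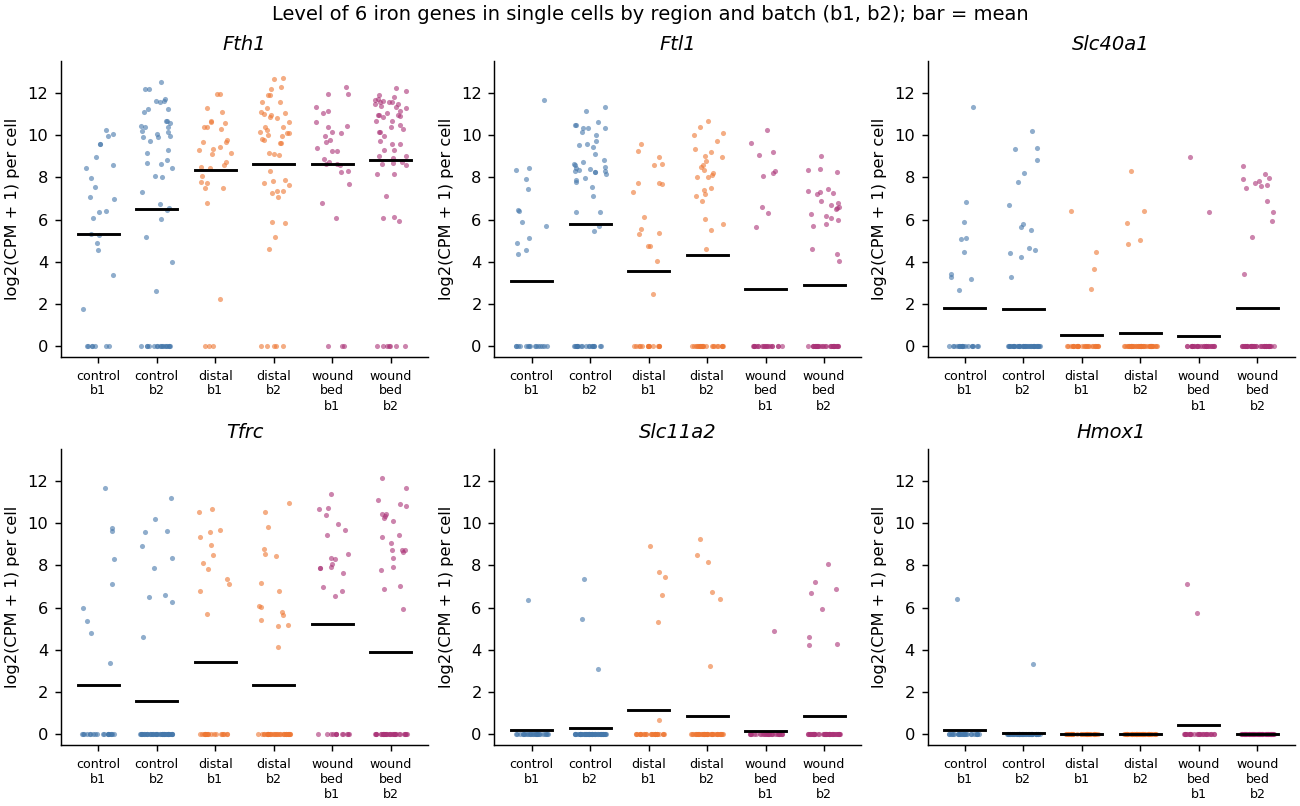
Each point is 1 cell; the vertical axis is log2(CPM + 1) and the horizontal axis the region and batch, with a bar at the mean of each plate. Fth1 fills most cells of the distal and wound bed plates, while Slc40a1, Slc11a2 and Hmox1 are at 0 in most cells of every plate.

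Fth1 was the most widely read of the genes and reached more cells away from the control region. It had a read in 60 of the 84 cells of the control (71.4%, exact 95% interval 60.5 to 80.8%), 73 of the 81 of the distal region (90.1%, 81.5 to 95.6%) and 75 of the 85 of the wound bed (88.2%, 79.4 to 94.2%). After each cell was thinned to 10000 reads the shares were 62.7%, 80.5% and 84.6%. By plate, the share was 75% and 69.6% in control, 90.6% and 89.8% in distal and 90% and 87.3% in wound bed cells, so both control plates lay below the other 4.

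Per cell, Fth1 ran from 0 to 5851 CPM with a median of 143 in control, from 0 to 6571 CPM with a median of 789 in distal and from 0 to 4909 CPM with a median of 868 in wound bed cells. The ranges overlapped almost whole, and the control had the largest share of cells at 0. Among cells without a read of Krt79, a keratin of the upper follicle, the medians were closer, at 762, 863 and 1146 CPM in control, distal and wound bed cells. The shares with Fth1 there were 85.4%, 94% and 95.7%, with overlapping intervals. In cells with Krt79 they were 52.8% of 36, 71.4% of 14 and 56.25% of 16. The split was chosen after the data were seen, and its part in the regional difference was not tested. The mean of log2(CPM + 1) was 5.32 and 6.50 on control, 8.32 and 8.61 on distal and 8.64 and 8.81 on wound bed plates (batch 1, batch 2). Within a batch the mean per cell was higher than in the control by 3.0 and 2.11 in the distal region and by 3.32 and 2.31 in the wound bed. A difference of at least 1 in both batches on this per-cell scale was met upward by 3.32% of 6356 genes for distal against control and by 3.13% of 5776 genes for wound bed against control.

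Summed reads per plate, in which cells with many reads weigh more, gave smaller differences for Fth1. Scaled by TMM (trimmed mean of M values, a factor per plate), the sums were 333 and 730 CPM in control, 669 and 529 CPM in distal and 830 and 1253 CPM in wound bed cells. The log2 ratio of scaled CPM + 1 was 1.0 and -0.46 for distal against control and 1.31 and 0.78 for wound bed against control. The size rule used for every gene asks for a log2 ratio of at least 1 in size, in 1 direction in both batches, among genes read in at least 10% of cells of a compared region in each batch. Fth1 did not meet it on summed reads in any comparison.

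Ftl1, the light chain, was lower in its summed reads away from the control. It had a read in 50 of the 84 cells of the control (59.5%, 48.3 to 70.1%), 43 of the 81 of the distal region (53.1%, 41.7 to 64.3%) and 34 of the 85 of the wound bed (40%, 29.5 to 51.2%). By plate the shares were 46.4% and 66.1% in control, 53.1% and 53.1% in distal and 33.3% and 43.6% in wound bed cells. In batch 1 the distal share thus lay above that of the control. Per cell it ran up to 3213 CPM in control (median 69.2), up to 1646 CPM in distal (median 23.7) and up to 1213 CPM in wound bed cells (median 0). The plate sums were 136 and 297 CPM in control, 38.2 and 132 CPM in distal and 70.8 and 66.1 CPM in wound bed cells. Each plate away from the control lay below the control plate of its batch.

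For distal against control the Ftl1 log2 ratio was -1.80 and -1.17, a mean of 2.80-fold lower, which met the size rule. Wound bed against control gave -0.93 and -2.15, just short of the rule in batch 1, and distal against wound bed gave -0.87 and 0.99. The distal call did not hold when every cell was weighted equally (-0.62 and -0.97), without the 4 deep cells (-0.72 and -1.17), after thinning (-0.61 and -0.96) or for the mean per cell (0.44 and -1.47).

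**Figure D2:**
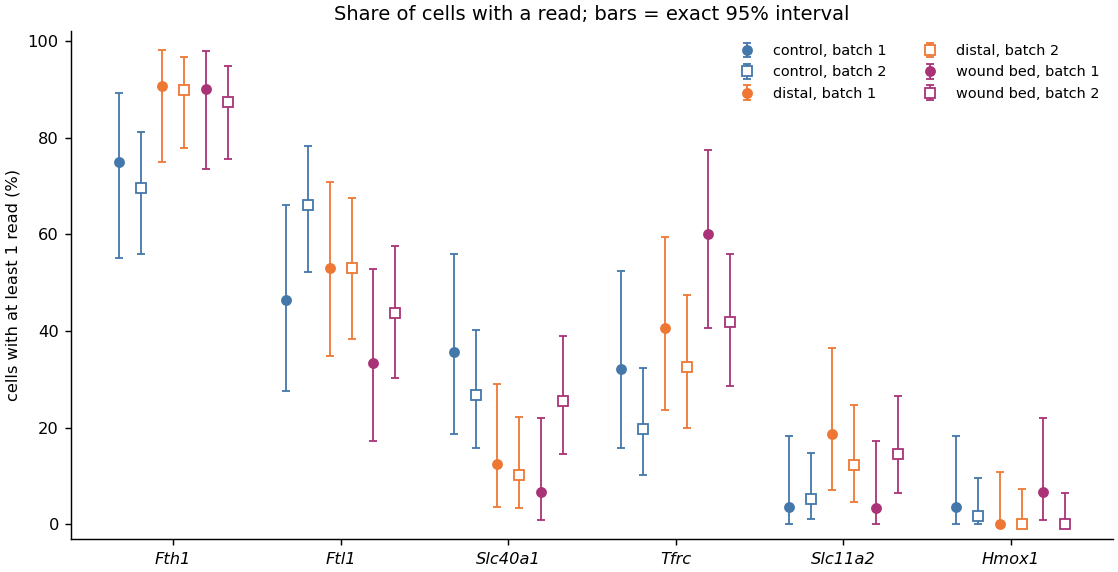
The vertical axis is the percent of cells with at least 1 read and the horizontal axis the gene; points are plates and bars exact 95% binomial intervals, which cover counting error only. Both control plates lie below the other 4 for Fth1 (75% and 69.6%), and both wound bed plates lie above the plate of the same batch in the other regions for Tfrc.

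The make-up of the ferritin reads set the control plates apart from the other 4, with Fth1 taking a larger part away from the control. The quantity was added after the data were seen: reads of each chain were divided by transcript length (929 bases for Fth1-201, 968 for Ftl1-201), and the heavy chain was expressed as a percent of the sum. It was 71.9% and 71.9% on control, 94.8% and 80.7% on distal and 92.4% and 95.2% on wound bed plates. Per length, Fth1 thus stood 2.56-fold over Ftl1 on both control plates, 18.2-fold and 4.17-fold on the distal plates and 12.2-fold and 19.7-fold on the wound bed plates. All 4 plates away from the control lay above both control plates, and the gap from the control to the nearer distal plate was smaller than the spread between the distal plates. Without the 4 deep cells distal plate 1 gave 8.28-fold (89.2%). Control plate 1 gave 1.33-fold after thinning and 1.70-fold without the cells rich in predicted genes. After thinning, the percents were 57.1 and 69.8, 88 and 84.2, and 86.1 and 97.3, in the same order.

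Cell by cell, where depth allowed, the regions differed in the same direction when their plates were pooled. Among cells with at least 10 ferritin reads, Ftl1 was the larger chain per length in 15 of 51 from the control (29.4%, exact 95% interval 17.5 to 43.8%), 5 of 67 from the distal region (7.46%, 2.47 to 16.6%) and 1 of 66 from the wound bed (1.52%, 0.0384 to 8.16%). Of the 15 such control cells, 14 had a read of the basal keratin Krt5, 7 of Krt79, a keratin of the upper follicle, and 4 of the suprabasal keratin Krt10. Of the 36 control cells with more Fth1, 30 had Krt5, 8 had Krt79 and 17 had Krt10. The median percent of heavy chain over these cells, plates pooled, was 75 in control, 90.4 in distal and 100 in wound bed cells. By plate it was 91.6 and 69 in control, 97.7 and 86.8 in distal and 100 and 99.3 in wound bed cells. Control plate 1 thus lay above distal plate 2.

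**Figure D3:**
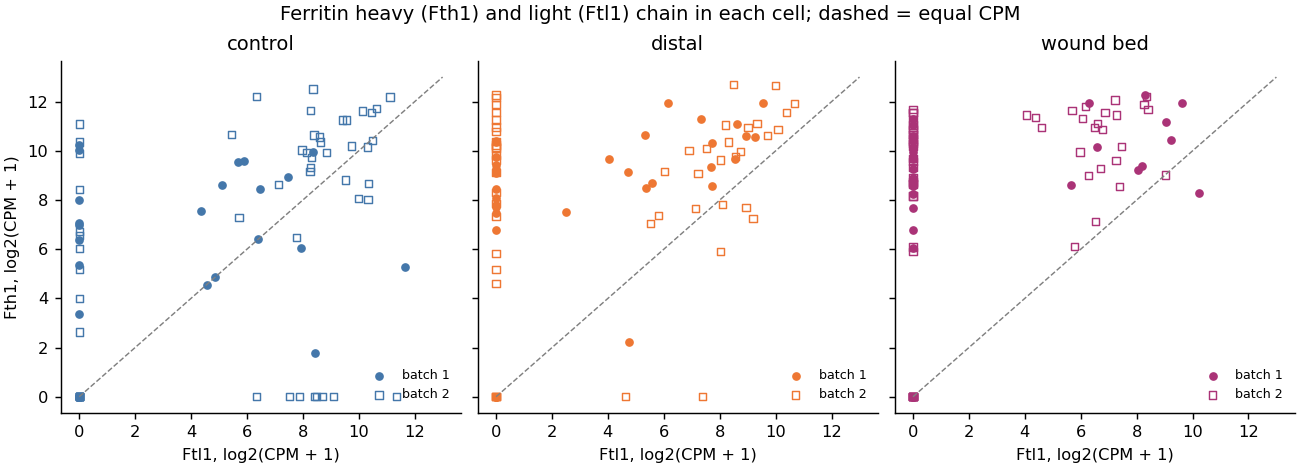
Each point is 1 cell, with log2(CPM + 1) of Ftl1 on the horizontal and of Fth1 on the vertical axis, in a panel per region; the dashed line marks equal CPM. Cells at 0 for Fth1 but not Ftl1 number 8 in control, 2 in distal and 0 in wound bed cells.

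Reads of processed ferritin copies could in part belong to the parent genes, since the sequences are alike. The table had 160 reads on Ftl2-ps, 20 on Ftl1-ps1 and 11 on Fth-ps2, against 3068 on Ftl1 and 17403 on Fth1. With the copies added, the heavy chain made up 70% and 70.7% on the control plates. Genes that overlap Ftl1 (Gm22133, Gm10252) or Slc11a2 (Gm5475) in the annotation could share reads with them in the same way.

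Slc40a1, the exporter, was a gene of few cells. It had a read in 25 of the 84 cells of the control (29.8%, 20.3 to 40.7%), 9 of the 81 of the distal region (11.1%, 5.21 to 20%) and 16 of the 85 of the wound bed (18.8%, 11.2 to 28.8%). By plate the shares were 35.7% and 26.8% in control, 12.5% and 10.2% in distal and 6.67% and 25.5% in wound bed cells. Both distal plates and batch 1 of the wound bed were low, and batch 2 of the wound bed was close to the control plate of its batch. The median cell was at 0 in every region, and the highest cell reached 2604 CPM in control, 312 CPM in distal and 491 CPM in wound bed cells.

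The plate sums of Slc40a1 were 63.5 and 55.4 CPM in control, 13 and 10.2 CPM in distal and 7.19 and 37.1 CPM in wound bed cells. For distal against control this was a mean of 4.83-fold lower (log2 ratio -2.21 and -2.34). Single cells carried much of these sums: 73.7% of the reads on control plate 1, 81.6% and 75% on the distal plates and 76.9% on wound bed plate 1 came from the top cell of each. Without the top cell of every plate the ratio was -2.39 and -3.55, and the mean per cell differed by -1.29 and -1.14. The call was lost in batch 1 without the cells rich in predicted genes (-0.45 and -2.16, with 9 control cells left in batch 1) and among cells with at least 2000 genes (-0.49 and -1.88). After thinning, shares of cells with a read were 12%, 6.49% and 14.1%, and all 3 intervals overlapped. Wound bed against control gave -2.98 and -0.56, with the same sign in both batches. Distal against wound bed gave 0.77 and -1.77, but -1.19 and -1.77 without the 4 deep cells and -2.39 and -1.41 after thinning. In those 2 settings Slc40a1 did not pass the 10% filter and was not called. With every cell weighted equally the ratio was -1.99 and -2.27, which met the size rule.

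Tfrc, the uptake receptor, had its widest detection in the wound bed. It had a read in 20 of the 84 cells of the control (23.8%, 15.2 to 34.3%), 29 of the 81 of the distal region (35.8%, 25.4 to 47.2%) and 41 of the 85 of the wound bed (48.2%, 37.3 to 59.3%). Thinned to equal depth the shares were 18.1%, 27.3% and 47.4%. By plate they were 32.1% and 19.6%, 40.6% and 32.7%, and 60% and 41.8%, so that in each batch the order was control, distal, wound bed. Neighbouring plates in this order had overlapping intervals.

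The highest cell reached 3259 CPM of Tfrc in control, 1949 CPM in distal and 4544 CPM in wound bed cells. The plate sums were 577 and 78.6 CPM in control, 219 and 134 CPM in distal and 333 and 449 CPM in wound bed cells. On control plate 1 a single cell held 72.3% of the reads. The log2 ratio of wound bed to control was -0.79 and 2.50, and 0.63 and 2.56 without the top cell of each plate. The mean of log2(CPM + 1) per cell was higher in the wound bed than in the control by 2.88 and 2.30, and lower in the distal region than in the wound bed by 1.80 and 1.57 (differences of -1.80 and -1.57), a size met downward by 1.19% of 6285 genes on that scale. Distal against control gave -1.39 and 0.76 on summed reads.

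Slc11a2 was read in few cells of every region. It had a read in 4 of the 84 cells of the control (4.76%, 1.31 to 11.7%), 12 of the 81 of the distal region (14.8%, 7.90 to 24.4%) and 9 of the 85 of the wound bed (10.6%, 4.96 to 19.2%). By plate the shares were 3.57% and 5.36% in control, 18.8% and 12.2% in distal and 3.33% and 14.5% in wound bed cells. After thinning the shares of the regions were 2.41%, 10.4% and 6.41%, with overlapping intervals. The plates held 31 and 40 reads in control, 220 and 113 in distal and 1 and 29 in wound bed cells, of which single cells gave 100% and 95% in the control and 55% and 57.5% in the distal region. The log2 ratio for distal against control was 1.62 and 1.87 (a mean of 3.35-fold higher). The mean per cell differed by less, 0.92 and 0.58, and without the cells rich in predicted genes the ratio was 0.66 and 2.07. For distal against wound bed the log2 ratio was 4.28 and 1.76; the batch 1 value rests on 1 wound bed read, and the ratio of CPM there was 36.1 with a 95% counting interval of 6.41 to 1427. The mean per cell gave 0.98 and -0.01, and weighting every cell equally gave 4.20 and 0.76. Wound bed against control fell below the 10% filter.

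Hmox1 (chr8:75093621-75100589, plus strand, GRCm38) was close to undetected. It had 10 reads in all, in 2 control cells and 2 wound bed cells, and 0 of 81 distal cells had a read, which allows a share of up to 3.70% by a floor of 3 counts, or 4.45% as the upper limit of the exact 95% interval. No fold is given for it. The reads of the 6 genes per length thus put Fth1 highest on all 6 plates (359 to 1349 scaled CPM per kilobase), with Ftl1 (39.5 to 307) and Tfrc (16.1 to 118) below it. Tfrc exceeded Ftl1 on distal plate 1 (44.9 against 39.5) and wound bed plate 2 (91.9 against 68.3), and Ftl1 exceeded Tfrc on the other plates. Slc40a1 (2.13 to 18.8), Slc11a2 (0.183 to 10.6) and Hmox1 (0 to 1.76) were the lowest, except on control plate 2, where Slc40a1 had 16.4 and Tfrc 16.1.

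By the size rule on summed reads, 3 of the 5 genes considered were called for distal against control, Slc11a2 higher and Slc40a1 and Ftl1 lower. Over all 6356 genes considered there, 8.07% were called higher and 6.09% lower; since Slc40a1 was picked with this contrast in view, nothing is read from the count. None of 4 was called for wound bed against control, where 7.83% of 5776 genes were higher and 8.24% lower. For distal against wound bed 1 of 5 was called, Slc11a2 higher, beside 9.59% of 6285 genes higher and 5.28% lower. On the per-cell mean, Fth1 was called higher and Slc40a1 lower for distal against control (0.551% of genes were lower on that scale), and Fth1 and Tfrc higher for wound bed against control. The median log2 ratio of all genes considered was 0.23 and -0.07, 0.03 and -0.03, and 0.25 and -0.02 in these comparisons, and the comparisons share their plates.

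**Figure D4:**
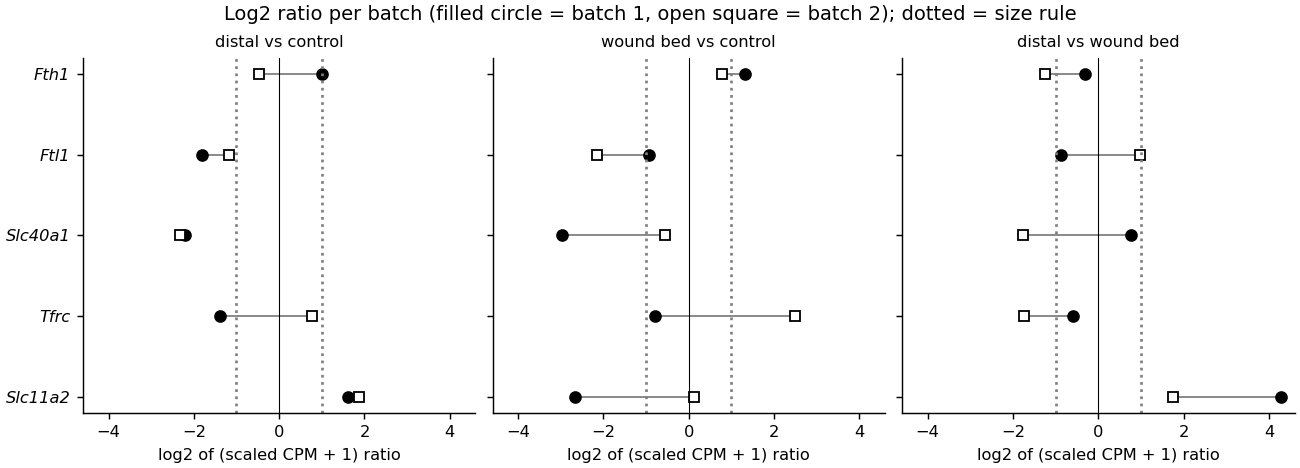
The horizontal axis is the log2 ratio of scaled CPM + 1 of the plate sums and the vertical axis the gene; the filled circle is batch 1, the open square batch 2, and dotted lines mark the size rule. Slc40a1, Ftl1 and Slc11a2 lie beyond the rule in both batches for distal against control, and only Slc11a2 does for distal against wound bed.

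The genes were not spread over the same cells. The 2 ferritin chains went together: 117 of the 127 cells with Ftl1 (92.1%) also had Fth1, which was 56.3% of the 208 cells with Fth1. Spearman's rho of their log2(CPM + 1) was positive within all 6 plates, from 0.23 to 0.59 over 28 to 56 cells. Ftl1 and Tfrc ran weakly opposite within all 6 plates (-0.36 to -0.07), though 1 plate was positive after thinning, and such weak values in sparse counts are given as values only. In batch 2 of the wound bed (55 cells), Slc40a1 went with Tfrc (0.53, 12 cells with both) and against Fth1 (-0.57). The other 3 plates with enough Slc40a1 cells gave 0.12 or less for the first pair and -0.34 to 0.01 for the other. Cells with reads of 2 of the 6 genes were the commonest, 127 of 250, and 10 cells had none.

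Light chain RNA was largely found in cells with Krt5, a keratin of basal keratinocytes, while heavy chain RNA was also common outside them. The split used here, by a read of Krt5, was chosen after the data were seen. Ftl1 had a read in 46 of 56 Krt5-positive control cells (82.1%) and 4 of 28 without Krt5 (14.3%), in 42 of 52 (80.8%) and 1 of 29 (3.45%) distal cells, and in 34 of 66 (51.5%) and 0 of 19 wound bed cells. Over all regions the shares were 70.1% of 174 cells and 6.58% of 76 cells, and 55.8% and 5.48% after thinning. Median reads per cell without and with Krt5 were 65517 and 61931 in control, 46588 and 50857 in distal, and 75354 and 37476 in wound bed cells.

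Fth1 reached beyond the Krt5-positive cells, most widely in the distal region. Among cells with Krt5, Fth1 had a read in 85.7% of control, 96.2% of distal and 98.5% of wound bed cells, with medians of 426, 1059 and 1355 CPM. Among cells without Krt5 the shares were 12 of 28 (42.9%), 23 of 29 (79.3%) and 10 of 19 (52.6%). After thinning these were 29.6% (exact 95% interval 13.8 to 50.2%), 69% (49.2 to 84.7%) and 52.9% (27.8 to 77%). Of distal cells without Krt5, 23 thus carried heavy chain reads and 1 carried light chain reads.

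The gene lists of the epidermal layers gave the same order within plates. Ftl1 followed the basal score, the mean log2(CPM + 1) of 7 basal genes, at a rho of 0.54 to 0.70 in all 6 plates, and against the suprabasal score at -0.69 to -0.52. Fth1 followed the basal score at 0.21 to 0.64 and ran against the upper follicle score at -0.62 to -0.10. It also ran against the suprabasal score at -0.52 to -0.12, though 1 plate was positive after thinning. Tfrc went with the suprabasal score in all 6 plates (0.08 to 0.55), and at 0.08 to 0.41 after thinning. The suprabasal genes, summed per plate, stood at 14712 and 13052 scaled CPM in control and 19824 and 9815 in distal cells. In wound bed cells they stood at 33235 and 25514. The part of this in the wider Tfrc detection of the wound bed was not tested. Points within a plate share library preparation and base composition, and rho with the log of reads per cell was -0.32 to 0.17 for Ftl1 and -0.59 to 0.07 for Fth1. For Tfrc it was -0.05 to 0.37, and rho with the number of genes detected per cell was 0.04 to 0.31. For Slc40a1 these were 0.07 to 0.39 and 0.01 to 0.35 on the 4 plates where they were computed. Among 1083 genes read widely enough, those most like Ftl1 over the 6 plates were the basal keratins Krt5 (mean rho 0.63) and Krt15 (0.60) and the calcium-binding protein gene S100a6 (0.54). Those most like Fth1 were Krt5 (0.53), the hemidesmosome collagen Col17a1 (0.47) and Krt15 (0.42). The 99th percentile of genes was 0.39 and 0.37.

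**Figure D5:**
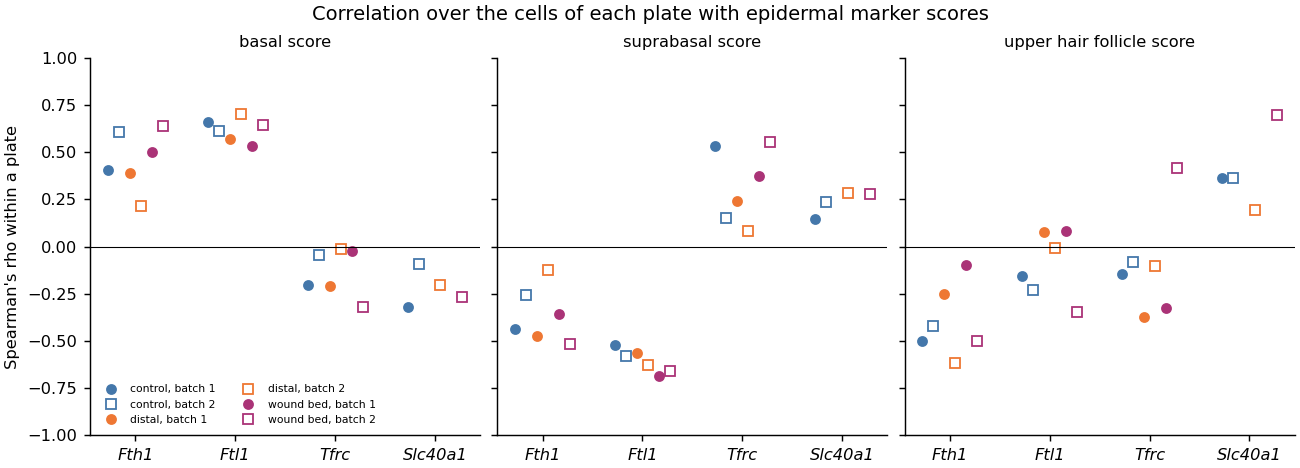
The vertical axis is Spearman's rho over the cells of a plate between a gene and a marker score; each point is a plate, coloured by region, with batch 1 filled and batch 2 open. Ftl1 is positive with the basal and negative with the suprabasal score on all 6 plates, and Slc40a1 is positive with the upper follicle score on the 4 plates where it was computed.

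Slc40a1 went with both the upper follicle and the suprabasal genes. Its rho with the upper follicle score was 0.37, 0.36, 0.19 and 0.70, and with the suprabasal score 0.14, 0.24, 0.28 and 0.28, on the 4 plates with at least 5 cells having a read (control 1 and 2, distal 2, wound bed 2). The split by a read of Krt79 used next was also chosen after the data were seen. In the wound bed it had a read in 11 of 16 cells with Krt79 (68.8%) and 5 of 69 without (7.25%), and after thinning in 46.7% (21.3 to 73.4%) and 6.35% (1.76 to 15.5%). In the control the shares were 41.7% and 20.8%, with 11.1% and 12.8% after thinning, and in the distal region 1 of 14 and 8 of 67. All of these shares pool the plates of a region. In the wound bed, cells with a Slc40a1 read were 2 of 30 on plate 1 and 14 of 55 on plate 2. A difference between plates was not separated from the split. The upper follicle genes themselves were lower away from the control by the size rule, 4 of 9 (Krt17, Cst6, Plet1, Defb6) in the distal region, beside 6.09% of all genes, and 5 of 9 (Krt79, Lrig1, Sostdc1, Cst6, Fst) in the wound bed, beside 8.24%, with 0 higher in either. Cells with Krt79 numbered 36 in control, 14 in distal and 16 in wound bed cells. The part of this in the lower Slc40a1 of the distal plates was not tested.

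The list of other iron genes held 41 genes of uptake, export, storage, sensing, haem and mitochondrial iron, of which 37 were in the table; Trf, Tfr2, Hamp and Ftmt were not analysed here. For distal against control 2 of 19 considered were higher and 0 lower, beside 8.07% and 6.09% of all genes: Urod, an enzyme of haem synthesis (1.86 and 1.13), and Iscu, the scaffold on which iron-sulfur clusters are built (1.46 and 2.29). Iscu rested on 2 and 14 control reads against 25 and 62 distal reads, and Urod on 10 and 74 against 98 and 119. For wound bed against control 0 of 20 were called, beside 7.83% of all genes higher and 8.24% lower, and for distal against wound bed 0 of 19, beside 9.59% and 5.28%. The list's median log2 ratio was -0.30 and 0.30, -0.49 and -0.17, and 0.66 and -0.04 in the 3 comparisons.

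Of the 19 iron genes considered for distal against control, 5 were above 0 in both batches, 6 below 0 in both and 8 of opposite sign; the most read genes of each role were as follows. The iron chaperones Pcbp1 (-1.74 and -0.66) and Pcbp2 (-1.09 and -0.42), which hand iron to ferritin, were below 0 in both batches without meeting the rule. Heph, a ferroxidase that works with Slc40a1, gave 3.11 and -2.05 and the metalloreductase Steap4 -1.48 and 0.63. Cp, another ferroxidase, and the transporter Slc39a14 were under the filter. The iron sensor Fbxl5 gave 1.48 and -0.48, and Ireb2, an iron regulatory protein, -0.30 and 1.53. In haem metabolism Fech gave 0.71 and -1.41 and Blvra 0.57 and 0.38, and in the mitochondrion Glrx5 gave -0.11 and -1.06 and Nfs1 -3.47 and 1.75.

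Nrf2 (Nfe2l2) and Bach1 are the activator and repressor that act on the promoters of ferritin, Slc40a1 and Hmox1. Of the 9 genes of this list, 0 of 5 considered were called for distal against control and 0 of 3 for wound bed against control, where the shares of all genes are those given above. For distal against wound bed 2 of 5 were higher, beside 9.59% of all genes: Keap1, the inhibitor of Nrf2 (1.30 and 1.17), and Gclc, an enzyme of glutathione synthesis (3.06 and 1.33), the latter on 2 wound bed reads in batch 1. Nfe2l2 itself gave -0.77 and -0.22 for distal against control and -0.92 and 0.62 for wound bed against control, and Bach1 gave 0.71 and 0.70 for distal against control. Among their targets, Gclm gave 3.46 and -0.55 for distal against control, and Txnrd1 was under the filter.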

How the data were processed

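Single cells of 3 tail skin regions were profiled by Smart-Seq2. The authors deposited a table of raw counts, whole numbers for each gene in each cell. Per the submitters' processing notes, Salmon 0.13.1, Seurat and R 4.0.3 were used with mm10 (GRCm38), with no roles given. How estimates became whole counts is not given in the sources used here. Columns were matched to samples by title (250 matched, 0 unmatched). The members and gene lists were chosen with earlier results of these data known.

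Counts were summed over each of 6 plates and scaled by TMM (edgeR 4.0.16, R 4.3.3); log2 ratios of scaled CPM + 1 were taken within batches. Per-cell levels are log2(CPM + 1) on each cell's own total. No cell was left out of the main values, doublets were not called, and no test between regions was run. Thinning drew 10000 reads from each cell and left out 12 cells with fewer. Intervals are exact Clopper-Pearson (95%) or Poisson and, like the floor of 3 counts, cover counting error only: without molecular identifiers, reads cannot be taken as separate molecules. Pairs were given a rho on plates where each gene had reads in at least 5 cells. Genes named besides the 6 met the size rule in a comparison, or were up to 2 of each role with the most reads, or the 3 most like Fth1 and Ftl1, the members read in at least 25% of the cells of every plate. The ratio step was tested on simulated data. Sites were searched in GENCODE M21 transcripts. Alternatives were DESeq2 1.42.0 size factors, library size, pseudocounts, cell weights, cell filters and detection filters.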

Additional observations from a re-analysis of the deposited data

How the results depend on the processing

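No test between regions was run, paired or unpaired, since the labels name no animal. Ratios were taken within batches, which sets plates of the same batch against each other. Of the 6 genes, 3 were called for distal against control; the count was 0 after thinning, where Slc40a1 (-4.31 and -1.55) and Slc11a2 (2.17 and 3.59) no longer passed the 10% filter, and 1 (Ftl1) without cells rich in predicted genes, a choice made after seeing the data. For wound bed against control, 0 were called, but 2 by the mean per cell, and 1 each after thinning (Tfrc), among cells with at least 2000 genes (Ftl1) and without cells rich in predicted genes (Ftl1). For distal against wound bed, 1 was called, but 2 by library size alone (Tfrc lower at -1.14 and -1.64), and 0 after thinning and with a 25% filter. The 1 call was Slc11a2, but Slc40a1 with equal weights and Tfrc by the mean per cell. No called value changed the sign of its mean over batches; by the mean per cell, Ftl1 for distal against control (0.44) and Slc11a2 for distal against wound bed (-0.01) did so in 1 batch. The other iron genes, 2 for distal against control, numbered 0 with a pseudocount of 10, by the mean per cell, after thinning and with a 25% filter. They numbered 4 of 19 with equal cell weights (all genes: 531 higher and 360 lower of 6356) and without deep cells (459 and 424 of 6253). With at least 2000 genes they numbered 4 of 23 (980 and 516 of 8086), and without cells rich in predicted genes 5 (689 and 347 of 6548). For wound bed against control they went from 0 to 1 with equal weights (all genes: 483 higher and 457 lower of 5776) and 2 without a filter. With at least 2000 genes they numbered 4 of 22 (all genes: 882 higher and 837 lower of 7917). For distal against wound bed they went from 0 to 1 by library size alone and 2 with at least 2000 genes. They also numbered 1 without deep cells (all genes: 550 higher and 455 lower of 6216) and 1 without a filter. The causes were not tested. Over all genes, distal against wound bed had 603 higher and 332 lower of 6285 by TMM and 479 and 484 by library size alone. Of the same 6285, 549 and 368 were called by DESeq2 size factors, 250 and 178 with a pseudocount of 10 and 162 and 75 by the mean per cell. After thinning there were 241 and 272 of 3794, and with at least 2000 genes 1167 and 564 of 8278. Without a filter there were 1288 and 699 of 27003, and with a 25% filter 137 and 110 of 2651. Wound bed against control had 452 higher and 476 lower of 5776, but 266 and 245 with a pseudocount of 10 and 181 and 104 by the mean per cell. After thinning there were 328 and 233 of 3604, and without cells rich in predicted genes 617 and 435 of 5937. Without a filter there were 944 and 1048 of 27003, and with a 25% filter 114 and 132 of 2302. Distal against control had 513 higher and 387 lower of 6356, but 225 and 218 with a pseudocount of 10 and 211 and 35 by the mean per cell. After thinning there were 232 and 185 of 3493, and with at least 2000 genes 980 and 516 of 8086. Without a filter there were 1116 and 789 of 27003, and with a 25% filter 113 and 137 of 2748. The Slc40a1, Slc11a2 and Hmox1 values are limited by depth: with at least 5 reads asked for, Slc40a1 was seen in 14.3%, 4.94% and 9.41% of control, distal and wound bed cells.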
